A study of Mus musculus with 30 samples.

Results

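The colon response to HFD in female mice was described from 12 RNA-seq libraries, 6 from females fed HFD and 6 from females fed control diet (CD), out of 30 libraries of the series. The other 18 were from males, 6 each on CD with vehicle, HFD with vehicle, and HFD with estradiol at 0.5 mg/kg. The libraries were chosen by their labels alone, as females on either diet that received vehicle. All were C57BL/6J mice with intact ovaries, 5 to 6 weeks old at the start, fed for 13 weeks with a diet that gave 10% (CD) or 60% (HFD) of its energy as fat. Both groups received 9 intraperitoneal injections of vehicle, without any hormone, during the last 3 weeks, and the mice were killed at the same time of day. That hour is not given in the sources used here. The RNA was from distal colon, per the study's methods and results. Each library came from 1 animal and mixes the cell types of the tissue taken, among them the muscle wall (12 smooth muscle genes summed to 2727 TPM or more in each library), so that fewer cells of a type and less RNA per cell cannot be told apart. The study asked how the diet alters colon gene expression in each sex, and the female comparison is described here.

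The inner lining of the colon is a simple epithelium of absorptive colonocytes, mucus-secreting goblet cells and hormone-secreting cells, renewed from crypt stem cells. The anal canal and the skin beside it are instead lined by a stratified squamous epithelium, which is built on other keratins (Krt5 and Krt14 in the basal layer, Krt4 and Krt13 in moist layers, Krt1 and Krt10 in layers that cornify) and is held together by desmosomes. A HFD supplies fatty acids that activate genes of fatty acid uptake and oxidation, and feeding also acts on the circadian clock. In the clock, Arntl (Bmal1) with Clock or Npas2 switches on the Per, Cry and Nr1d genes, whose products in turn repress the activators.

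Counts on genes ranged from 9229178 to 12013850 per CD library (median 10681454) and from 10453115 to 12473865 per HFD library (median 11718596). The libraries had the markers of the labelled tissue. Muc2, the main mucin of goblet cells, was present at 1880 to 2713 TPM (transcript levels per gene length, with an equal sum in each library) on CD and at 1436 to 2513 TPM on HFD. The summed level of 10 goblet cell genes was 3049 TPM or more in every one of the 12 libraries.

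Some HFD libraries stood apart from the other female libraries in squamous keratins. Krt4 (chromosome 15, 101918536 to 101924735, in GRCm38) was listed at 379 TPM in HFD replicate 1, 304 in replicate 3, 61.8 in replicate 5 and 54.1 in replicate 4. It was listed at 0.059 TPM in HFD replicate 2 and at 0 in replicate 6, while CD replicate 1 had 1.03 TPM and the other 5 CD libraries were listed at 0, although they held up to 5 counts. The same 4 HFD libraries were therefore high, and the remaining HFD libraries overlapped with CD. Krt5 (chromosome 15, 101707070 to 101712891) reached 78.1, 102, 63.0 and 15.3 TPM in HFD replicates 1, 3, 4 and 5, against 0 in replicates 2 and 6. Krt13 (chromosome 11, 100117327 to 100121566) reached 417, 369, 273 and 66.6 TPM in these 4 libraries, 0.528 in replicate 2 and 0 in replicate 6, and 1.62 in CD replicate 1. In exact two-sided permutation tests of log2 CPM (counts scaled to library size), for which 6 animals against 6 allow no p below 0.00216, HFD differed from CD with p = 0.0476 for Krt4, p = 0.0606 for Krt5 and p = 0.0238 for Krt13. Results of this test are given as exact p for single genes.

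**Figure D1:**
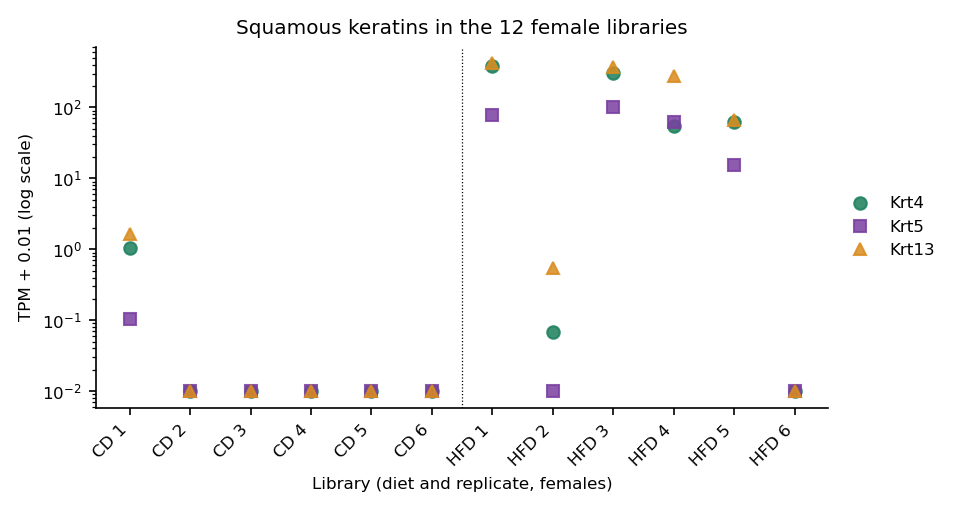
TPM (plus 0.01, log axis) of Krt4, Krt5 and Krt13, one symbol per gene, in each of the 12 female libraries, with CD on the left and HFD on the right of the dotted line. HFD replicates 1, 3, 4 and 5 lie far above the other libraries, where most values are at or near 0.

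The diet response was therefore divided by these keratins. For each gene, the correlation with the mean log2 CPM of Krt4, Krt5 and Krt13 (the keratin score) was calculated over the 12 libraries after each group's mean was subtracted, and a gene with r over 0.7 was taken to follow the keratins. The correlations are descriptions over 12 libraries, in which the gene and the score come from the same library, and rest mainly on the spread among the 6 HFD libraries, whose scores were 8.18, -1.46, 8.39, 7.15, 6.03 and -2.29 in order of replicate, against -2.27 to 0.14 on CD. As a second separation, the fit was repeated with the keratin score as a covariate. Since the score is high in 4 HFD libraries only, that fit takes the diet effect mostly from the CD animals and HFD replicates 2 and 6.

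A gene counted as differentially expressed (DEG) when edgeR's quasi-likelihood test gave an unadjusted p under 0.05 and its log2 fold change was above 0.4 or below -0.4. The exact test differs from edgeR's, and several DEGs have an exact p over 0.05. With that rule 3.67% of the 15061 genes tested were DEGs, 2.95% higher and 0.724% lower on HFD. Without the fold minimum, 856 genes had an unadjusted p under 0.05, compared with the 753 that a threshold of 0.05 gives when no gene differs, and 3 passed after adjustment, so that a DEG call of a single gene is weak evidence. Of the 553 DEGs, 119 followed the keratins and 434 did not. All 119 that followed were higher on HFD, with a median log2 fold change of 1.15, out of 294 tested genes that followed (40.5%), which were 1.95% of all genes tested. Among the 434 others, 325 were higher (median log2 fold change 0.65) and 109 were lower (median -0.55), out of 14767 tested (2.94%). The genes that followed were chosen by their spread in the same libraries, and the count of DEGs among them is a description and no independent evidence. The correlation was also taken from the 18 male libraries, which played no part in the female test and of which 6 were from estradiol-treated males. By it, 29 tested genes followed the keratins, and 25 of these were DEGs in females, all of them higher on HFD. This male correlation rests mainly on HFD male replicates 2 and 4, with keratin scores of 6.21 and 4.57.

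**Figure D2:**
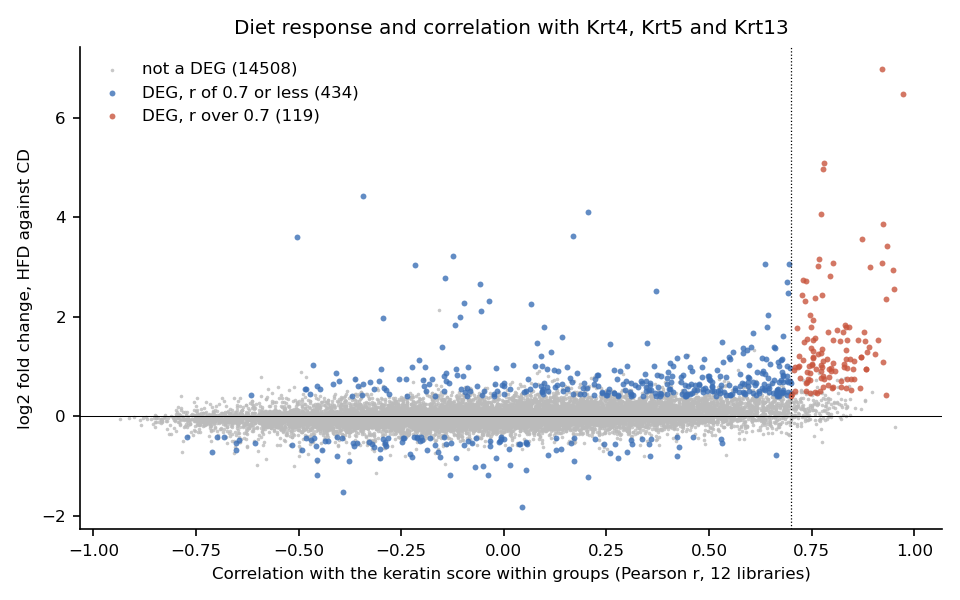
Each point is one of the 15061 genes tested, with its correlation with the keratin score within the diet groups (x axis) and its log2 fold change of HFD against CD (y axis). The 119 DEGs to the right of the dotted line at r of 0.7 were all higher on HFD, while the 434 DEGs to its left lay on both sides of 0.

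The limit between the classes was gradual. Of 388 tested genes with r between 0.6 and 0.7, just outside, 68 were DEGs (67 higher), and of 209 tested genes with r between 0.7 and 0.8, just inside, also 68 were DEGs (68 higher). At the other end, 257 tested genes had r under -0.7, of which 2 were DEGs, both lower. Muc2 was among those with a strong negative correlation (r = -0.81), with a log2 fold change of -0.35 ± 0.15 (SE, exact p = 0.0368), which did not reach the fold threshold.

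With the keratin score in the fit, 302 genes were DEGs (2.01%), 155 higher and 147 lower, and 101 of them were also DEGs without the score. In this fit 397 genes had an unadjusted p under 0.05, fewer than the 753 given when no gene differs. Of these 101, 99 did not follow the keratins. Using HFD replicates 2 and 6 alone against the 6 CD females, 373 genes were DEGs, of which 50.7% were higher on HFD, compared with 80.3% of the DEGs from all 12 libraries. Between these fits, 94 DEGs were shared.

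First, the genes that moved with the keratins were described. None of the 3 keratins of the score could be tested, since the filter on low counts asks for about 10 counts in at least 6 libraries, which these genes did not reach. The same held for many squamous genes, and 345 untested genes with counts followed the keratins. The filter was also relaxed to 10 counts in 4 libraries, a choice made after 4 HFD libraries were seen to be high, so that these genes entered through those libraries and their direction was given. In that fit, as a description, the log2 fold changes were 9.08 ± 2.03 (SE) for Krt4, 10.17 ± 2.18 for Krt5 and 9.00 ± 1.89 for Krt13. Because the CD libraries had few or 0 counts, these folds depend on the count added to 0 and give no bound.

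Krt4, Krt5 and Krt13 make up the score and follow it by construction. Of the 6 other squamous keratins on the list, 5 followed it. Krt14, the partner of Krt5 in basal cells, was present at 0.0661 to 2.43 TPM on CD (median 0.669) and at 0 to 504 TPM on HFD (median 70.0). It was high in HFD replicates 1, 3, 4 and 5 (124, 121, 504 and 18.5 TPM), and the groups overlapped. Its log2 fold change was 6.99 ± 1.63 (SE, exact p = 0.039, adjusted p = 0.412 with edgeR), and 0.26 with the keratin score in the fit. Krt16, a keratin of proliferating and stressed epidermis, was the exception (r = 0.54). It had 397 TPM in HFD replicate 4 but at most 7.58 TPM in the others. Krt6b likewise was highest in replicate 4 (567 TPM, against 86.9 and 82.2 in replicates 1 and 3), whereas Krt4 and Krt13 were highest in replicates 1 and 3. The mixture of keratins therefore differed among the 4 libraries. Krt6a and Krt6b, and Krt14, Krt16 and Krt17, are close in sequence, and how their shared reads were divided is uncertain.

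Part of the desmosome and adhesion genes moved in the same way, as 12 of the 17 on that list followed the keratins. Of the 10 tested, 6 followed and 7 were DEGs, all higher. Itga6 (r = -0.06), Itgb4 (r = 0.31) and Pkp3 (r = 0.48) neither followed nor were DEGs. The median log2 fold change was 1.06 over the 10, compared with 0.0012 over all genes tested. The median fell to 0.09 with the keratin score in the fit, where none was a DEG. Pkp1, a plakophilin of the desmosomal plaque, had 6.22 to 9.43 TPM on CD (median 7.60) and 7.04 to 35.2 on HFD (median 19.8), with a log2 fold change of 1.29 ± 0.35 (SE, exact p = 0.0216). Fat2, a large cadherin of squamous cells, was higher by 3.07 ± 0.73 on the log2 scale (exact p = 0.00649), and Dsc3, a desmosomal cadherin, by 4.98 ± 1.15 (exact p = 0.00866). Their log2 fold changes were 0.06 (Pkp1), 0.33 (Fat2) and 0.87 (Dsc3) with the score in the fit. Trp63, the transcription factor that specifies squamous epithelium, was listed at 13.0, 12.7, 3.57 and 2.52 TPM in HFD replicates 1, 3, 4 and 5 and at 0.086 or less in the other 8 libraries.

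Part of the cornified envelope genes and of the epidermal lipid barrier genes followed the keratins. Of 24 envelope genes, 15 did so, 8 were tested and 2 were DEGs (Ppl and Sbsn). The most abundant member, Tgm3, a transglutaminase, did not (r = -0.67), with 353 to 443 TPM on CD and 297, 558, 271, 417, 414 and 390 TPM in HFD replicates 1 to 6. Sprr2a3, of the small proline-rich proteins, was likewise lowest in HFD replicates 1 and 3 (146 and 112 TPM, against 215 to 361 TPM on CD), and neither gene was a DEG. The summed level of the list was therefore no measure of the keratin pattern, with 1130 TPM in HFD replicate 2, which lacked the keratins, and 1020 TPM in replicate 1. Flg, which encodes filaggrin, was listed at 24.9, 75.6, 13.8 and 2.81 TPM in HFD replicates 1, 3, 4 and 5 and at 0 in every other female library. Among 10 tested lipid barrier genes, 7 were DEGs, all higher, and 4 of the 7 followed the keratins. Fabp5, the epidermal fatty acid binding protein, had 2.13 to 6.17 TPM on CD (median 4.36) and 6.12 to 75.0 on HFD (median 35.8), with a log2 fold change of 3.57 ± 0.83 (SE, exact p = 0.0108). Elovl4, which elongates very long fatty acids, was higher by 3.42 ± 0.90 (exact p = 0.0584). Both were highest in HFD replicates 1, 3 and 4. When the score was added, Fabp5 was at 0.45 on the log2 scale and Elovl4 turned to -0.59.

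Markers of other tissues near the anal canal were high in some of the same libraries, HFD replicates 1 and 3, but not in all of them. The summed level of 12 skeletal muscle genes was 10.8 to 25.7 TPM on CD, and 249.4, 9.72, 287, 23.7, 74.0 and 18.5 TPM in HFD replicates 1 to 6. Of the 12 genes, 7 followed the keratins, 4 were tested and 3 were DEGs, all higher, of which 1 followed the keratins and Acta1 (r = 0.70) and Myh2 (r = 0.69) lay just outside. Acta1, skeletal muscle actin, was at 45.4 and 49.3 TPM in HFD replicates 1 and 3, at 9.46 in replicate 5 and at 1.0 to 2.83 in the other 9 libraries. Ckm, the muscle creatine kinase, was the most abundant of the list. HFD replicate 4, which was high in keratins, was therefore not high in skeletal muscle genes. The summed level of 14 genes of hair, pigment and sebaceous gland was 29.9 and 35.8 TPM in HFD replicates 1 and 3, 3.77 or less in the other HFD libraries and 0.964 or less on CD, and 1 of the 14 followed the keratins. Whether the colon pieces differed in how much anal canal they held was not tested.

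The strongest DEGs among those that followed the keratins included genes of several functions. Tmem154, a membrane protein gene, had 0.442 to 1.33 TPM on CD (median 0.728) and 1.55 to 3.88 on HFD (median 2.27). Its groups did not overlap (exact p = 0.00216, the smallest possible), and the log2 fold change was 1.69 ± 0.33 (SE, adjusted p = 0.20 with edgeR and 0.00072 with DESeq2). Nebl, an actin-binding nebulette, and Cldn1, a tight junction claudin of squamous cells, also did not overlap in log2 CPM, with log2 fold changes of 1.53 ± 0.32 and 1.11 ± 0.26. Nebl, Cldn1 and Tmem154 kept positive values of 0.54, 0.30 and 0.73 with the keratin score in the fit. The others with the lowest p were Krt10, Clca4b, Lipk, Tnfaip2 and Plekhn1, with log2 fold changes from 1.32 (Plekhn1) to 1.79 (Clca4b) apart from Krt10. Krt10, of cornifying layers, was at 0.394 to 0.872 TPM on CD and at 165, 0.796, 174, 69.6, 18.5 and 0.45 TPM in HFD replicates 1 to 6.

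Several inflammatory and hormone receptor genes that the study discusses for females were in this class. Anxa1, an inflammation-limiting annexin, had 74.2 to 148 TPM on CD (median 90.2) and 65.0 to 524 on HFD (median 164). It was higher by 0.93 ± 0.34 on the log2 scale (SE, exact p = 0.0801, adjusted p = 0.651), with a correlation at the limit of the class (r = 0.71), and by 0.04 with the score in the fit. Cxcl5, a chemokine for neutrophils, was higher by 3.09 ± 1.0 (exact p = 0.0736), with levels of 0 to 0.757 TPM on CD and 0.134 to 9.996 TPM on HFD. With the score in the fit its log2 fold change was -0.93. Nos2 (r = 0.66) lay just outside the class, with 0 to 0.136 TPM on CD and 0 to 0.576 TPM on HFD.

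Esr1, the gene of estrogen receptor α, had 1.47 to 3.24 TPM on CD (median 2.20) and 1.60 to 7.69 TPM on HFD (median 3.54). The log2 fold change was 0.75 ± 0.29 (SE, exact p = 0.117, adjusted p = 0.693), with r = 0.85, and was -0.23 with the keratin score in the fit. Without HFD replicate 1 or 4 it was no longer a DEG, with an unadjusted edgeR p of 0.0649 without replicate 1. Of 14 steroid and nuclear receptors tested, 4 were DEGs, all higher, among them Esr1, Pgr and Rarg, and Esr1 and Rarg followed the keratins. Pgr, the progesterone receptor, was at 4.48 and 3.38 TPM in HFD replicates 1 and 4 and at 0.335 or less in the other 10 libraries.

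Next, the genes that did not follow the keratins were considered. Among all genes tested, 0.206% had groups that did not overlap in log2 CPM, 0.153% higher and 0.0531% lower on HFD. Of these 31 genes, 27 did not follow the keratins (19 higher and 8 lower). A gene that does not differ separates the groups with a probability of 0.00216, and the share of 0.206% was no more than this. No overlap is therefore weak evidence for a single gene. Genes that were named for it have the smallest exact p by that choice. Ly6c2 (chromosome 15, 75108158 to 75111970), a surface antigen of inflammatory monocytes, endothelium and some lymphocytes, passed the adjusted threshold with and without the keratin score. Its counts were 2 to 10 on CD and 20 to 63 on HFD, and its log2 fold change of 2.77 ± 0.32 (SE, adjusted p = 0.00272 with edgeR) was 2.89 with the score in the fit (adjusted p = 0.0264), where it was the only gene that passed (0.00664% of those tested). All HFD animals were above all CD animals, whatever their keratins. Ly6c2 is nearly identical to Ly6c1, for which the log2 fold change was 0.14 ± 0.19 and which was no DEG, and how reads were divided between them is uncertain. Of the 8 tested Ly6 family genes, Ly6c2 and Ly6d were DEGs, and Ly6d, an antigen of squamous cells, followed the keratins (r = 0.79).

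Lifr (chromosome 15, 7129559 to 7197489), the receptor subunit for leukemia inhibitory factor, was lower on HFD. It had 9.60 to 16.9 TPM on CD (median 13.4) and 6.08 to 14 TPM on HFD (median 8.70). HFD replicates 1 and 5 overlapped with CD in TPM, but not in log2 CPM. The log2 fold change was -0.82 ± 0.13 (SE, adjusted p = 0.0461 with edgeR) and -0.75 with the keratin score. In the 12 fits with 1 library left out, the adjusted p of Lifr ran from 0.020 to 0.192, and it passed in 4. Among the 7 tested genes for receptors that signal through gp130, and for their signaling partners, Lifr was the only DEG.

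Ciart (chromosome 3, 95878503 to 95882251), a repressor of the clock, passed the adjusted threshold as well. It was at 0.0539 to 0.838 TPM on CD (median 0.346) and at 1.09 to 7.21 TPM on HFD (median 2.62), without overlap. The log2 fold change was 2.67 ± 0.39 (SE, adjusted p = 0.0332 with edgeR), and 2.65 with the keratin score. Its adjusted p ran from 0.00532 to 0.137 in the fits with 1 library left out, and it passed in 4 of 12.

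Fa2h (chromosome 8, 111345135 to 111393824), which hydroxylates fatty acids for sphingolipids, was on the epidermal lipid list but did not follow the keratins (r = 0.02). It had 2.32 to 4.83 TPM on CD (median 3.50) and 6.66 to 9.45 on HFD (median 7.81). All HFD animals exceeded all CD animals, with a log2 fold change of 1.02 ± 0.17 (SE) that was 1.01 with the score. Its adjusted p was 0.0707 with edgeR and 3.04e-05 with DESeq2. Ppp1r3b (chromosome 8, 35375741 to 35388124), which targets a phosphatase to glycogen, was lower on HFD, with 27.5 to 36.8 TPM on CD (median 32.6) and 19.9 to 29.0 on HFD (median 23.9). The groups overlapped in TPM but not in log2 CPM, and the log2 fold change was -0.48 ± 0.08 (SE, adjusted p = 0.0707 with edgeR and 4.43e-06 with DESeq2). Pla2g5, a secreted phospholipase, was higher by 0.75 ± 0.18, and Gm38056, a gene of unnamed function, was lower by 0.54 ± 0.18, each without overlap in log2 CPM.

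**Figure D3:**
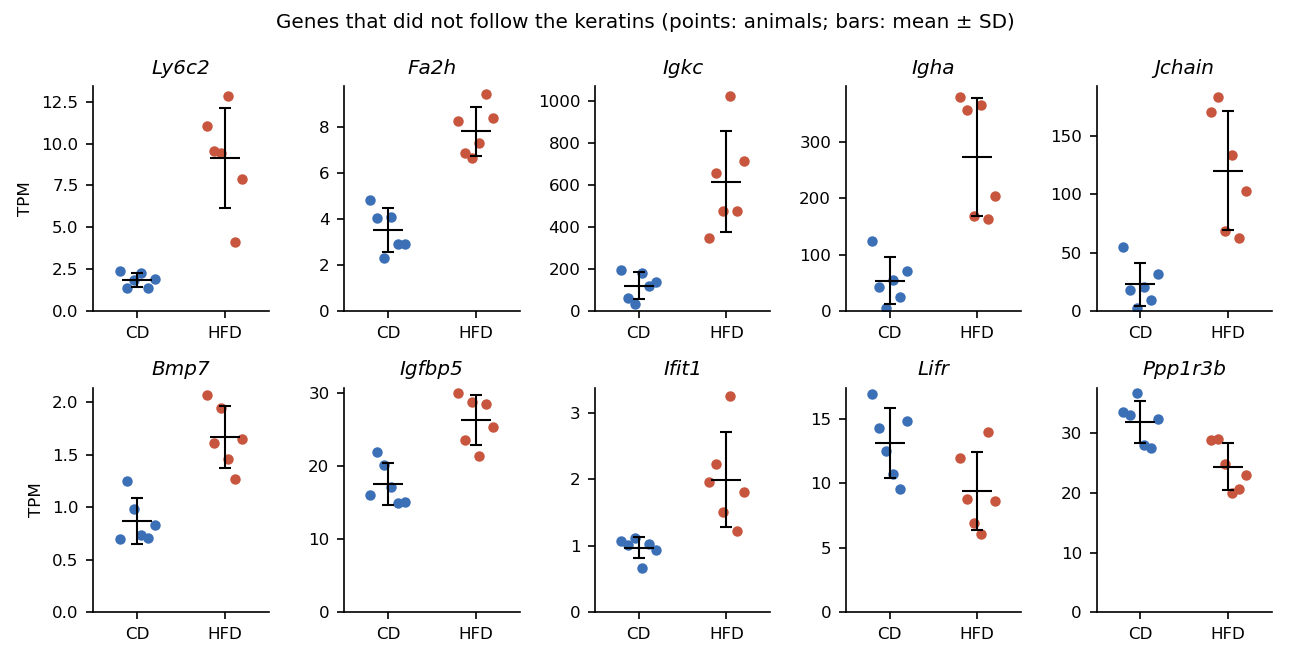
TPM of 10 genes that did not follow the keratins, with one point per animal (6 CD, 6 HFD), the mean as a line and the SD as bars, and each y axis from 0. All 10 separated the diets in log2 CPM, which was a criterion for naming genes of this class and is no result. Igfbp5, Lifr and Ppp1r3b overlapped in TPM.

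Plasma cell genes were among the largest of these responses. Plasma cells of the gut wall secrete IgA, which is joined by the J chain. Igkc (chromosome 6, 70726435 to 70726966), the constant part of the kappa light chain, was at 31.0 to 195 TPM on CD (median 129) and at 349 to 1022 TPM on HFD (median 567), without overlap. The log2 fold change was 2.28 ± 0.46 (SE, exact p = 0.00216, adjusted p = 0.383 with edgeR). Igha, the IgA heavy chain, had 5.78 to 125 TPM on CD (median 48.6) and 164 to 381 TPM on HFD (median 281), with a log2 fold change of 2.26 ± 0.53. Jchain was at 2.44 to 54.8 TPM on CD and at 62.4 to 184 TPM on HFD, higher by 2.32 ± 0.52 on the log2 scale. With DESeq2 the adjusted p was 0.00055 for Igkc, 0.0070 for Igha and 0.0052 for Jchain, but 0.718 for Ighm, the IgM heavy chain. Each of the 3 genes separated the groups with the smallest exact permutation p, 0.00216, and their log2 fold changes were 2.35 (Igkc), 2.12 (Igha) and 2.36 (Jchain) with the keratin score in the fit. HFD replicates 2 and 6, which lacked the keratins, had 657 and 715 TPM of Igkc and lay within the range of the other HFD libraries.

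Of 10 plasma cell genes, 7 were tested and 4 were DEGs, all higher (Jchain, Igha, Igkc and Ighm). Their summed level, with Igkc as the most abundant, was 152 to 531 TPM on CD and 811 to 1674 TPM on HFD. Ighm, the IgM heavy chain, had the smallest change of the 4 (0.86 ± 0.39, exact p = 0.0866), and with 1 library left out it was a DEG in 5 of 12 fits, with an unadjusted edgeR p up to 0.135. Immunoglobulin genes also made up 9 of the 18 DEGs that did not follow the keratins and changed by over 2 on the log2 scale, a grouping made after the values were seen. Counting genes whose symbols start like those of constant and variable genes, 20 were tested and 15 were DEGs, all higher. None followed the keratins, and the median log2 fold change was 2.04. The filter asks for about 10 counts in at least 6 libraries, which a low gene could reach through the 6 HFD libraries alone. Ighg2b, for example, had 1 to 33 counts on CD and 42 to 98 on HFD. The direction of such genes was given by the filter, and these counts are a description. Reads of immunoglobulin genes can be shared between near-identical variable genes, so that single ones are uncertain. None of 10 tested B cell genes was a DEG, which is near the 3.67% over all genes tested. Their median log2 fold change was -0.45, and 0.34 with the score. The difference from the plasma cell genes was not tested.

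Interferon response genes were another group that did not follow the keratins. Of 20 tested, 10 were DEGs, all higher (Ifit1, Ifit3, Oasl1, Oasl2, Irf7, Gbp2, Gbp5, Iigp1, Usp18 and Rtp4), and 5 were DEGs with the keratin score. The median log2 fold change was 0.48, and 0.46 with the score. Ifit1, an inhibitor of viral translation, had 0.673 to 1.12 TPM on CD (median 1.02) and 1.22 to 3.25 on HFD (median 1.88), without overlap, with a log2 fold change of 0.94 ± 0.22 (SE, exact p = 0.00216). Oasl1 was at 4.09 to 6.68 TPM on CD and at 6.96 to 10.3 TPM on HFD, with a log2 fold change of 0.61 ± 0.17 (exact p = 0.0108). Rtp4 was higher by 0.81 ± 0.26 and Ifit3 by 0.65 ± 0.21. With edgeR, 11 of the 20 had an unadjusted p under 0.05 and none passed after adjustment over all genes (adjusted p of Ifit1 0.41), while with DESeq2 Ifit1 alone passed (adjusted p = 0.0267).

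Other immune cell markers were also counted, beside the 3.67% of DEGs over all genes tested. Of 16 tested macrophage and monocyte genes, only Itgam (CD11b) was a DEG, by 0.49 ± 0.15 on the log2 scale (exact p = 0.00649), with 0.78 to 1.85 TPM on CD and 1.55 to 2.72 TPM on HFD. None of 9 MHC class II genes was a DEG. Of 4 tested T and NK cell genes, Itgae (CD103) was a DEG, higher by 0.45 ± 0.19, and in 6 of 12 fits with 1 library left out. The neutrophil list had only 1 tested gene, Csf3r, which was higher (1.46 ± 0.38, exact p = 0.00649). The summed level of 10 neutrophil genes, mostly S100a9, was 44.96 and 23.4 TPM in HFD replicates 1 and 3, 4.68 or less in the other HFD libraries and 0.525 or less on CD. S100a9 is also a gene of squamous epithelium, and which cells it came from was not tested.

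The circadian clock was the next group. Of 3 clock activators, 2 were DEGs, both lower. Arntl (chromosome 7, 113207465 to 113314122) was at 11.2 to 30.7 TPM on CD (median 22.4) and at 6.43 to 16.0 TPM on HFD (median 10.2), with overlap between the groups, and the log2 fold change was -1.09 ± 0.25 (SE, exact p = 0.00649, adjusted p = 0.41 with edgeR). Npas2 was lower by 0.84 ± 0.27 on the log2 scale (exact p = 0.0108), while Clock itself had -0.20 ± 0.08 (exact p = 0.00866) and was below the fold threshold. Of 10 repressors, 6 were DEGs, with Ciart, Bhlhe41, Per3, Nr1d2 and Per1 higher and Cry1 lower. Per3 had 3.13 to 15.0 TPM on CD (median 8.71) and 12.5 to 25.1 TPM on HFD (median 18.3), with a log2 fold change of 1.01 ± 0.25 (exact p = 0.00649). Nr1d2, a REV-ERB receptor, was higher by 0.95 ± 0.22, and Cry1 was lower by 0.91 ± 0.26. With DESeq2 the adjusted p was 0.0025 for Arntl, 0.0062 for Per3 and 0.0053 for Nr1d2. Npas2, Cry1, Bhlhe41 and Per1 did not pass with it (0.0576 to 0.217). Nr1d1 (0.91 ± 0.48, exact p = 0.039), Per2 (0.42 ± 0.22, exact p = 0.141) and Bhlhe40 (0.00 ± 0.13, exact p = 0.981) were no DEGs.

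Clock outputs moved as well. None of the 19 clock genes reached r of 0.7 with the keratins, and 10 of the 12 clock DEGs were also DEGs with the keratin score in the fit. The exceptions were Hlf (r = 0.63), with a log2 fold change of 0.28 in place of 0.87, and Per1 (r = 0.46), with 0.29 in place of 0.64. The median of the output list fell from 0.54 to 0.16 with the score. Of the PAR-bZIP factors, which the clock drives through E-boxes, Dbp was higher by 1.99 ± 0.54 (SE, exact p = 0.00866), Tef by 1.38 ± 0.24 (exact p = 0.00433, adjusted p = 0.152 with edgeR) and Hlf by 0.87 ± 0.24 (exact p = 0.0152). Tef (chromosome 15, 81802421 to 81826861) was at 9.64 to 26.7 TPM on CD (median 13.3) and at 25.2 to 51.5 TPM on HFD (median 42.3). Nfil3, which opposes the PAR-bZIP factors, was lower by 0.98 ± 0.29 (exact p = 0.013). With DESeq2 the adjusted p was 1.24e-05 for Tef, 0.053 for Dbp, 0.054 for Hlf and 0.089 for Nfil3. The nuclear receptor gene Rora (0.20 ± 0.12) was no DEG. CD replicate 4 lay toward the HFD libraries in most of this group. In 9 of the 12 clock DEGs it was the CD library nearest to HFD, the lowest of the 6 in Arntl (11.2 TPM), Npas2 (9.28), Cry1 (2.14) and Nfil3 (0.953) and the highest in Ciart (0.838), Per3 (15.0), Nr1d2 (32.8), Dbp (24.3) and Tef (26.7). Bhlhe41, Per1 and Hlf were the exceptions, and Per2, no DEG, was lowest in it (2.93 TPM). Without that library, 664 genes were DEGs and 10 passed after adjustment, against 553 and 3 from all libraries. Among these were Dbp, whose log2 fold change rose to 2.95 (adjusted p = 0.000118, against 0.496 from all libraries), Tef (1.63, adjusted p = 0.00312), Nr1d2 (1.19, adjusted p = 0.00553) and Per3 (1.29, adjusted p = 0.00805). With any other library left out, the log2 fold change of Dbp was 1.82 to 2.08. Whether the animals differed in feeding time or in the minute of tissue collection was not tested.

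**Figure D4:**
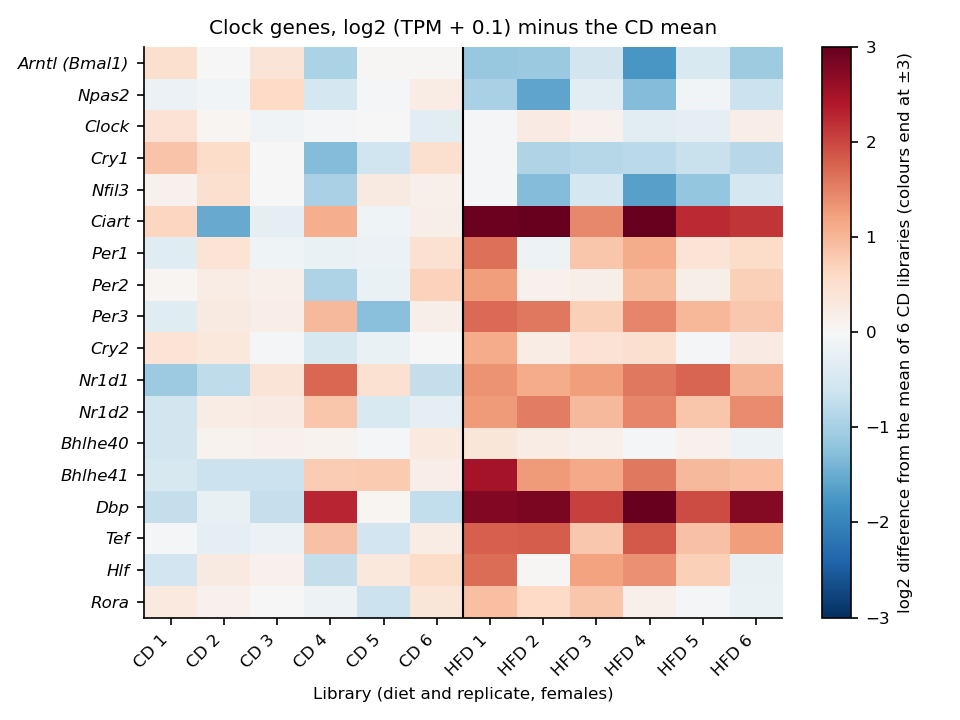
Levels of 18 clock genes (rows) in the 12 female libraries (columns), as log2 (TPM + 0.1) minus the mean of the 6 CD libraries, with red for higher and blue for lower. Arntl, Npas2, Cry1 and Nfil3 were lower, and Ciart, Per3, Nr1d2, Dbp and Tef higher, in most HFD libraries. CD replicate 4 was the CD library nearest to HFD in these 9 genes, whereas it was blue for Per2.

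The promoters of the clock genes were examined for the DNA elements of the clock. Windows from 250 bases before to 50 bases after the transcription start (RefSeq, GRCm38.p6) were found for 16 of the 19 genes, 21 windows in all. The E-box bound by Arntl and its partners, CACGTG, occurred on either strand in 5 genes (Bhlhe41, Ciart, Cry1, Per1 and Tef), and in 8.09% of the 27025 genes with a window. All 5 were DEGs, Cry1 lower and the others higher, but so were 12 of the 16 clock genes with a window, and 7 of these 12, among them Dbp, Hlf, Per3 and Nr1d2, had no such E-box. The core shared by ROR and REV-ERB receptors, TAGGTCA, was found in Arntl and Nfil3, both lower on HFD, and in 2.97% of all genes. The letters of the first motif read the same on both strands, and neither motif overlaps the other. A match describes these letters only, and 3 examples are printed as the 150 bases before the start, the genes' own strand, with the motif in capitals. They are Ciart, with the largest rise and 3 E-boxes (chr3:95882229-95882378, minus strand), Tef, with the lowest adjusted p among the PAR-bZIP genes (chr15:81802523-81802672, plus strand), and Nfil3, where the ROR and REV-ERB core lies on the opposite strand and reads TGACCTA (chr13:52981040-52981189, minus strand).
Ciart: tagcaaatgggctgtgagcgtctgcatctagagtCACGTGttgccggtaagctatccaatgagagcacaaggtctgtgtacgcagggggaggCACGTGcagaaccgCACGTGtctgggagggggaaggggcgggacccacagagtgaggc
Tef: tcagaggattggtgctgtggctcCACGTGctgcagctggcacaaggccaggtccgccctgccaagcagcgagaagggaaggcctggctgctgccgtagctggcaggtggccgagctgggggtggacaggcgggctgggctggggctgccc
Nfil3: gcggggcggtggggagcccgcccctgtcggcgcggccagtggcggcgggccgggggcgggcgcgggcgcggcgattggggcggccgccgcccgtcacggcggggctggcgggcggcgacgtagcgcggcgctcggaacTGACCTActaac

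Genes of lipid handling were set beside the share of DEGs over all genes tested, 3.67%. Of 20 tested genes of fatty acid oxidation and ketogenesis, Angptl4 and Pdk4 were DEGs, both of them PPAR target genes. Angptl4, an inhibitor of lipoprotein lipase, had 0.181 to 1.68 TPM on CD (median 0.572) and 0.773 to 4.26 TPM on HFD (median 1.91), with a log2 fold change of 1.48 ± 0.37 (SE, exact p = 0.0108). Pdk4, which spares glucose, was higher by 0.50 ± 0.19, and was no DEG without HFD replicate 1 (log2 fold change 0.38). Of 11 genes of lipid uptake and droplets, 2 were DEGs. Cd36, a fatty acid transporter, was higher by 0.60 ± 0.17 (exact p = 0.0216) and did not follow the keratins (r = 0.10). Mgll was higher by 0.53 ± 0.20 and followed them (r = 0.85). Dgat2, which makes triglycerides and is on the epidermal lipid barrier list, was higher by 0.78 ± 0.17 (exact p = 0.00649). It had 3.44 to 7.10 TPM on CD and 6.03 to 14.6 TPM on HFD. None of 13 fatty acid synthesis genes and 1 of 16 cholesterol synthesis genes was a DEG, both near that share. All 16 cholesterol synthesis genes had positive log2 fold changes, with a median of 0.18.

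Stromal signal genes were described next, and their correlation with the keratins ranged from low (Igfbp5, r = 0.09) to high (Wnt4, r = 0.75). Of 20 tested genes of BMP, Wnt and IGF signaling in the stroma, 11 were DEGs, all higher (Grem1, Wnt4, Sfrp2, Bmp7, Gas1, Igf1, Igf2, Igfbp2, Igfbp3, Igfbp4 and Igfbp5). Their median log2 fold change of 0.43 fell to 0.14 with the keratin score, where 2 were DEGs. Bmp7 (chromosome 2, 172868012 to 172940321), a bone morphogenetic protein, had 0.697 to 1.25 TPM on CD (median 0.786) and 1.27 to 2.07 TPM on HFD (median 1.63), without overlap. The log2 fold change was 0.69 ± 0.16 (SE, exact p = 0.00216), and 0.54 with the score. Igfbp5 (chromosome 1, 72857932 to 72874884), which binds insulin-like growth factors, had 14.9 to 21.9 TPM on CD and 21.3 to 29.99 TPM on HFD, overlapping in TPM only, and was higher by 0.50 ± 0.12 (exact p = 0.00216). Igf1 was higher by 0.66 ± 0.20 (exact p = 0.0216), and by 0.41 with the score. Wnt4, in contrast, followed the keratins, with a log2 fold change of 1.54 ± 0.43 that fell to 0.13.

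Among 16 fibroblast and matrix genes, 6 were DEGs that were higher (Col1a1, Col1a2, Col3a1, Col5a1, Col6a1 and Thbs2), and Thbs1 was lower. Col5a1 was a DEG in 9 of 12 fits with 1 library left out. Col1a2, a chain of type I collagen, was at 28.5 to 48.2 TPM on CD (median 38.0) and at 42.6 to 119 TPM on HFD (median 57.7), with a log2 fold change of 0.60 ± 0.19 (SE, exact p = 0.0238) that was 0.16 with the score. Col3a1 was higher by 0.40 ± 0.10, at the limit of the threshold. Leaving out CD replicate 1 or 5, or HFD replicate 1, 4 or 5, took it below, to 0.33 at the lowest. None of 12 smooth muscle genes and none of 10 endothelial genes was a DEG. All 12 smooth muscle genes had positive log2 fold changes, with a median of 0.24, and of -0.07 with the score. Their summed level was 4935, 4840 and 4841 TPM in HFD replicates 1, 3 and 5. It was 3584, 3596 and 2859 TPM in HFD replicates 2, 4 and 6, within the 2727 to 4198 TPM on CD. The part of this in the collagen and stromal values was not tested.

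Among all genes tested 3.67% were DEGs, and at that share short lists hold few or none. None of 8 tested goblet cell genes, 7 enteroendocrine genes and 18 cell cycle genes was a DEG, which is near that share. Of 13 tested surface colonocyte genes, 2 were DEGs, both higher. The epithelial sodium channel subunit Scnn1g was at 4.71 to 19.5 TPM on CD (median 9.07) and at 9.85 to 31.2 TPM on HFD (median 22.8), with a log2 fold change of 0.96 ± 0.34 (SE, exact p = 0.0368). Its partner Scnn1b was higher by 0.42 ± 0.19 (exact p = 0.0952), and with 1 library left out it was a DEG in 4 of 12 fits, with an unadjusted edgeR p up to 0.111. Of 12 crypt genes, Cd44, a Wnt target and adhesion receptor also of squamous cells, was the only DEG (0.92 ± 0.23, exact p = 0.00649), and it followed the keratins (r = 0.80). Sox9, a crypt transcription factor, had a log2 fold change of -0.39 ± 0.13 (exact p = 0.0173), just under the fold threshold.

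Immediate early genes, which respond to a stimulus within minutes, had 4 DEGs of 17 tested, all lower (Fosb, Atf3, Nr4a1 and Dusp6). CD replicates 2 and 6 stood apart in these genes, with summed levels of 484 and 433 TPM over the 20 genes of the list, against 240 to 320.5 TPM in the other CD libraries and 257 to 367 TPM on HFD. Atf3, a stress-induced transcription factor, was at 52.7 and 54.0 TPM in these libraries and at 11.6 TPM or less in the others on CD. Without CD replicate 2 or 6 neither Atf3 nor Nr4a1 was a DEG, and over all fits with 1 library left out Atf3 was a DEG in 6 of 12. Fosb was none without CD replicate 6, with a log2 fold change of -0.81 in place of -1.83, or without HFD replicate 2. Dusp6, a phosphatase that limits MAPK signaling, had 7.64 to 35.0 TPM on CD (median 15.0) and 8.30 to 12.6 on HFD (median 10.5), with a log2 fold change of -0.84 ± 0.24 (SE, exact p = 0.0108). Nr4a1, an orphan nuclear receptor, had 1.35 to 10.3 TPM on CD and 0.642 to 2.97 TPM on HFD (-1.19 ± 0.50, exact p = 0.19), with nearly the same medians of 1.86 and 1.83 TPM. The values of 10.3 and 7.86 TPM in CD replicates 2 and 6 were the highest. With 1 library left out it was a DEG in 7 of 12 fits, and its unadjusted edgeR p reached 0.111.

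**Figure D5:**
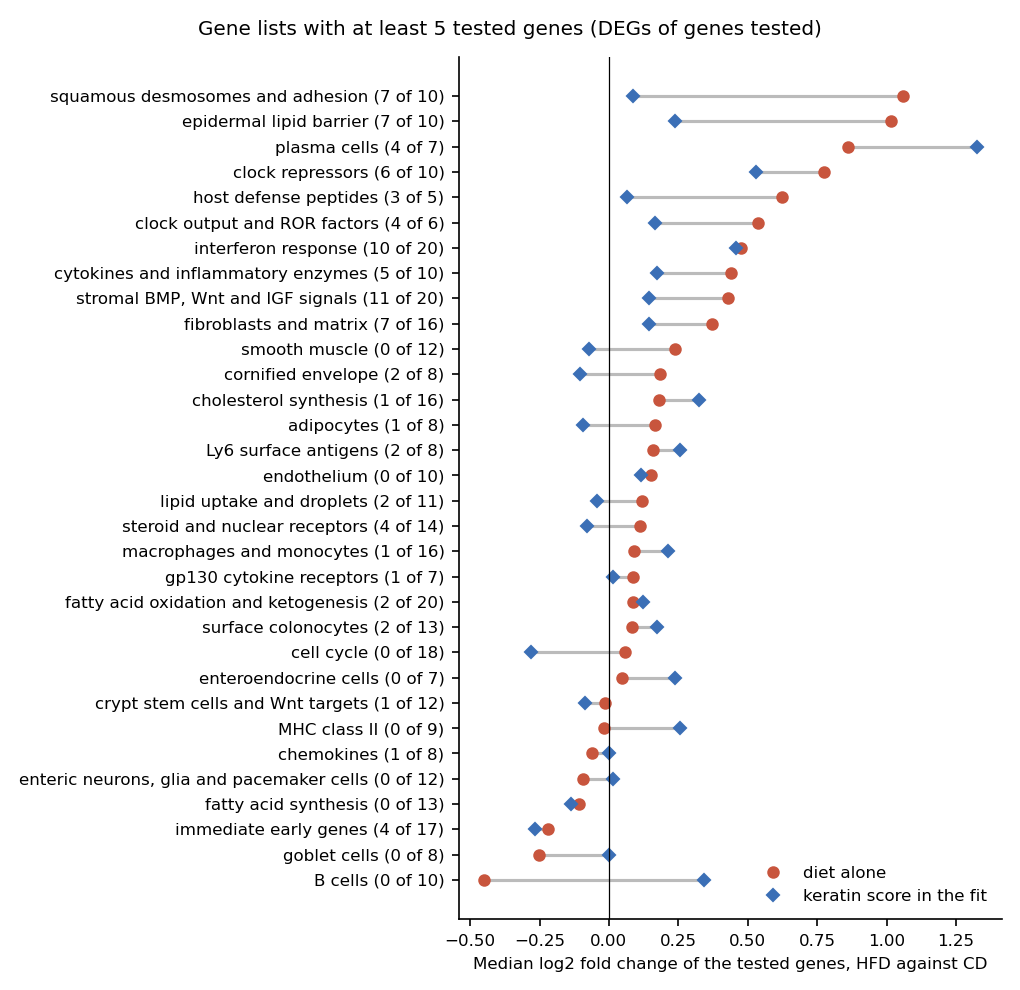
Median log2 fold change of HFD against CD over the tested genes of each list, from the fit with diet alone (circles) and with the keratin score added (diamonds), with the number of DEGs of the number tested. The desmosome list moved from 1.06 to 0.09 when the score was added, while the interferon (0.48 to 0.46) and plasma cell lists (0.86 to 1.33) kept their medians above 0.

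The genes that the study itself listed for females were also assigned to the classes. Of 125 names, 4 matched no symbol as spelled in the text used here (Colla1, Dnaja27, Psap1l and Smpd13b) and were left out, although genes with similar symbols, such as Col1a1, Psapl1 and Smpdl3b, were in the count table. Of the other 121, 100 were tested and 94 were DEGs here (81 higher and 13 lower). That list was chosen on these same samples, and its count is not independent evidence. Of the 94, 29 followed the keratins. Among all 121, tested or not, 46 followed them. The reference genes that the study used for qPCR did not differ, with log2 fold changes of 0.07 ± 0.08 for Actb, 0.00 ± 0.17 for Eef2 and -0.07 ± 0.12 for Tbp.

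Lastly, the female response was set beside that of vehicle-treated males on the same diets, with 6 libraries in each group. The interaction of sex and diet had an unadjusted p under 0.05 for 6.75% of 15800 genes, and none passed after adjustment with edgeR, although 7 did with DESeq2. Among males alone, 2.9% of 14991 genes tested were DEGs. High squamous keratins were not particular to females. With all 30 libraries, the keratin score was 6.21 and 4.57 in HFD male replicates 2 and 4. It was -1.55 or less in the other HFD males with vehicle, -0.92 or less in the HFD males with estradiol and up to 1.81 in CD males. In HFD female replicates 1, 3, 4 and 5 it was 6.00 to 8.36. Igfbp5 had the lowest interaction p among the genes named here (interaction of 0.95 on the log2 scale, adjusted p = 0.104 with edgeR), as it was higher on HFD in females (0.50) and lower in males (-0.45). Alox15, a lipoxygenase that followed the keratins in females (r = 0.77), had log2 fold changes of 0.91 ± 0.40 (SE) in females and -1.35 in males, with an adjusted p of 0.319 for the interaction. With 1 female library left out, Alox15 was a DEG in 6 of 12 fits, with an unadjusted edgeR p up to 0.118. The collagens Col1a2 and Col3a1 likewise had positive changes in females and negative changes in males (-0.35 and -0.39), with adjusted p values of 0.397 and 0.358 for the interaction. Arntl was lower in both sexes (-1.09 and -0.66), and its interaction had an adjusted p of 0.833. Ciart was higher in both (2.67 and 0.84), with an interaction of 1.83 on the log2 scale (adjusted p = 0.397).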

How the data were processed

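Colon RNA of 30 mice was sequenced, paired-end, after removal of ribosomal RNA, and the 12 libraries of vehicle-treated females are described here. The authors trimmed the reads with Trim Galore, mapped them to GRCm38 (mm10) with STAR and used featureCounts to obtain counts for 46078 genes. The counts were deposited as whole numbers without normalization. The annotation version and the strand setting are not given in the sources used here, so that reads of a gene and its antisense partner cannot be told apart. The authors also deposited TPM values per gene from StringTie, which are printed as levels and were not tested. TPM keeps no depth, and the total counts per library limit the precision of low genes. No per-sample column lacked a label.

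Counts of the 12 libraries were fitted with edgeR 4.0.16 in R 4.3.3 (filterByExpr, TMM, robust quasi-likelihood F-test, diet as the only term), with Benjamini-Hochberg adjustment over the 15061 genes tested. Adjusted p-values are from edgeR unless DESeq2 is named. The threshold for DEGs follows the study, where it is not stated if the p-value was adjusted. Standard errors follow from the F statistic. Log2 CPM used a prior count of 2. For single genes, exact two-sided permutation tests over all 924 splits were run on log2 CPM. For the interaction between sex and diet, 24 libraries of vehicle-treated mice were fitted. P-values measure the spread between animals.

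The genes named are the squamous list genes, every gene past the adjusted threshold, the DEGs not following the keratins with at least 1 TPM and no overlap (up to 10 per direction), the 8 following DEGs with the lowest p, all clock genes, the up to 4 genes with the lowest p of each other list, 9 genes that the study discusses for females and its qPCR reference genes. Where a list's DEGs are counted, most are named as well, a few genes are not reported here, and Krt1 and Krt10 were added after their values were seen. The members and the 40 gene lists were chosen with earlier results of these data known. A list is described by its counts and median, without a test. Its count of DEGs is to be read beside the 3.67% over all genes tested. Promoter sequences are from RefSeq (GRCm38.p6).

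Alternatives were DESeq2 1.42.0, its size factors, other filters on low counts, no fold minimum, a replicate block, 1 fit of all 30 libraries, each library left out, other definitions of the genes that follow the keratins, and log2 (TPM + 0.1) or (TPM + 1). HFD replicates 2 and 6 alone, and the filter of 10 counts in 4 libraries, were added after the data were seen. The fit and the correlation were tested on simulated counts.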

Additional observations from a re-analysis of the deposited data

Results flagged for a closer look

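Single libraries lay far from the other 5 of their diet group for 7 of the named genes, judged by the gap of the most extreme library to its neighbor divided by the range of the group on the log2 CPM scale. Of 366 groups checked (183 tested genes on 2 diets) 7 stood apart, fewer than the 1 in 20 that chance gives, and they are listed as values only. On CD, replicate 1 was low in Bhlhe40 (43.7 TPM, ratio 0.7177), Ckm (6.49 TPM, ratio 0.7048) and Ppl (1.89 TPM, ratio 0.6852). Among the HFD libraries, replicate 6 was low in Pmel (0.172 TPM, ratio 0.6913) and Serpinb5 (28.4 TPM, ratio 0.7173), a serpin of squamous and other epithelia, and replicate 2 was low in Nos2 (0 TPM, ratio 0.6569). HFD replicate 1 was high in Sparc, a matrix protein gene (122 TPM, ratio 0.6731).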

How the results depend on the processing

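The count of DEGs rose to 1018 with DESeq2 (209 past its adjusted threshold) and to 1496 without a filter on low counts, against 553 (3 adjusted). Of these, 369 and 390 followed the keratins and 649 and 1106 did not. It was 373 with HFD replicates 2 and 6 alone (40 following), 696 with the filter of 10 counts in 4 libraries (222 following), which lets in genes through the 4 keratin-high HFD libraries, 705 with all 30 libraries in one fit (206 following, 86 adjusted) and 856 without a fold minimum. With at least 10 counts in every library 0 genes passed after adjustment, with 428 DEGs. DEGs with the keratin score in the fit rose from 302 to 1047 without a filter. For the interaction, 7 genes passed with DESeq2, 1 without a filter and 1 with the replicate block. When each library was left out, DEGs numbered 481 to 827, adjusted DEGs 1 to 11, those following the keratins 91 to 156, the others 345 to 710, those with the keratin score 257 to 534 and the interaction 0 to 1 genes. The highest counts came without HFD replicate 2 (827, and 534 with the score), and without CD replicate 1 the count with the score was 458. Other definitions gave 234 (r over 0.5), 51 (r over 0.8), 25 (male libraries), 224 (HFD libraries alone), 234 (uncentred) and 62 (Spearman) DEGs that followed. The causes were not tested.

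The replicate numbers were not taken to pair the animals, since no label says that a number marks a shared litter or batch and the deviations of same-numbered libraries did not correlate at over 0.1 in every pair. They did in 4 of 6 (0.05 to 0.37 over all 6), each library correlated best with its own number in 1 of 6, and a shared factor in some pairs was not tested. With the replicate block 506 genes were DEGs and 12 passed after adjustment, 434 DEGs were shared with the fit without it, and 1020 were DEGs with the keratin score. The call was lost under the block for 17 of 90 named DEGs (Scnn1g, Scnn1b, Plin4, Fosb, Nr4a1, Pvrl1, Pvrl4, Per1, Anxa1, Col1a2, Col3a1, Cxcl5, Pgr, Acta1, Ppl, Cyp4f39 and Ighm).

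Of 90 named DEGs, 73 kept their call when each library was left out, and 72 kept their direction under every alternative in which they were tested (20 of the 90 were not with at least 10 counts in every library). The 18 that turned did so with HFD replicates 2 and 6 alone and, apart from Krt14 (-0.37), with the keratin score in the fit. Their log2 fold changes in these fits were -0.25 and -0.19 for Rarg, -0.15 and -0.0719 for Plin4, -0.47 and -0.45 for Pvrl4, -0.33 and -0.36 for Alox15, -0.16 and -0.0704 for Krt10, -0.24 and -0.23 for Esr1, -0.98 and -0.93 for Cxcl5, -0.48 and -0.24 for Pgr, -0.57 and -0.53 for Acta1, -0.12 and -0.0839 for Pvrl1, -0.55 and -0.59 for Elovl4, -0.14 and -0.12 for Mgll, -0.43 and -0.31 for Ppl, -0.61 and -0.63 for Sbsn, -0.0082 and -0.0285 for Nod2, -0.76 and -0.56 for Cyp4f39, and -0.36 and -0.39 for Tnnt3.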
